A study of Mus musculus with 2 samples.

Results

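The killer lectin-like receptor genes described here were 8 receptor genes of natural killer (NK) cells, out of 22620 genes counted in both tissues: Klrc1, Klrd1, Klre1, Klra4, Klra7, Klra8, Klrb1c and Ncr1. They were taken by symbol from the gene lists of both libraries, and no measured value entered that choice. All 8 had molecules in both libraries. Ncr1 belongs to the immunoglobulin family and is not lectin-like, so the group name fits 7 of the 8 by structure and all 8 by their use as NK cell receptors.

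The data were 2 single-cell RNA libraries, 1 of primary tumours and 1 of lymph nodes from the same C57BL/6J mice, with tissue of 6 mice pooled in each. By the labels, all mice carried tumours of EO771-HEVM3, while the text of the study calls the tumours EO771. EO771-HEVM3 is a line derived from the mouse breast cancer line EO771 by 3 rounds of selection in mice for tumour cells that reached the lung by way of high endothelial venules. There was no mouse without a tumour to compare with. Transcripts were counted at their 3′ ends as unique molecular identifiers (UMIs), and 8756 primary tumour cells and 9689 lymph node cells were kept, with medians of 9383 and 2324 UMIs per cell. Cells cannot be traced to single mice, so each tissue was 1 sample, and differences between tissues were neither replicated nor tested. Levels are UMIs of a gene per 1000000 UMIs (CPM), with all cells of a class added up, and carry exact 95% Poisson intervals, and shares of cells or UMIs carry exact Clopper-Pearson intervals. These intervals cover counting error only. Counts of 3′ ends are not per length, so levels were compared between cells for 1 gene at a time and not between genes.

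NK cells weigh signals from inhibitory and activating receptors against the surface of the cell they meet. CD94, the product of Klrd1, pairs with NKG2A, the product of Klrc1, and the pair binds the non-classical MHC molecule Qa-1, encoded by H2-T23, and inhibits. The product of Klre1 pairs with the receptors encoded by Klri1 and Klri2. The Klra genes encode the Ly49 receptors, which bind classical MHC class I molecules or related ligands: Klra7 encodes the inhibitory Ly49G, and Klra4 and Klra8 encode Ly49D and Ly49H, which signal through the adaptor encoded by Tyrobp. Single NK cells express varied sets of Ly49 genes. Klrb1c encodes NK1.1, the marker that defines NK cells in C57BL/6 mice, and Ncr1 encodes the activating receptor NKp46. CD8 T cells can also acquire CD94 and NKG2A after stimulation.

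In the GENCODE annotation of GRCm38, 7 of the 8 genes lay in 1.45 Mb of chromosome 6, from 128778485 to 130233322, and all were protein-coding. Klrb1c lay first (128778485 to 128789215, minus strand), then Klre1 (129577905 to 129585827, plus), Klrd1 (129591782 to 129598775, plus), Klrc1 (129666015 to 129678973, minus), Klra4 (130043731 to 130067271, minus), Klra8 (130115226 to 130129898, minus) and Klra7 (130218605 to 130233322, minus). Ncr1 lay on chromosome 7 (4337724 to 4345164, plus). Some of these genes have near-identical neighbours, which a 3′ read can fail to separate. In the last 500 bases of the transcripts, 21.5% of 91-base windows of Klrc1 were found letter for letter in Klrc2, 11.3% of those of Klrb1c in Gm44511 or Klrb1a, and 6.27% of those of Klra7 in the pseudogene Klra13-ps. These are shares of windows and not of UMIs, so how far the counts of these 3 genes are affected was not tested. The other 5 shared no such window with another gene.

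The 3 Ly49 genes are printed first because they are close relatives that differed in where their UMIs were found, with Klre1 and Ncr1 for contrast. Each sequence is the RefSeq window of 250 bases before the transcription start (GRCm38.p6), written 5′ to 3′ on the strand of the gene, with the start site directly after the last letter. The RefSeq starts of Klre1 and Klrb1c lie inside the genes as GENCODE gives them, so by that annotation their windows are within the transcribed region. Promoter windows were matched for 7 of the 8 genes, among 32851 in the table. Capitals mark a RUNX motif (TGTGGT) or a TATA motif (TATAAA), searched on both strands. Klra4 lies at chr6:130067272-130067521 (minus strand), Klra8 at chr6:130129899-130130148 (minus), Klra7 at chr6:130233323-130233572 (minus), Klre1 at chr6:129577963-129578212 (plus) and Ncr1 at chr7:4337474-4337723 (plus).
Klra4: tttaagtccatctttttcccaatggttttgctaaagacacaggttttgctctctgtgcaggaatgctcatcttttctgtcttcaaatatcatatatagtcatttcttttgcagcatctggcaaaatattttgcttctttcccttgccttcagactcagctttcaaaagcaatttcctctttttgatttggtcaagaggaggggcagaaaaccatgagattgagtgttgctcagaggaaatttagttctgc
Klra8: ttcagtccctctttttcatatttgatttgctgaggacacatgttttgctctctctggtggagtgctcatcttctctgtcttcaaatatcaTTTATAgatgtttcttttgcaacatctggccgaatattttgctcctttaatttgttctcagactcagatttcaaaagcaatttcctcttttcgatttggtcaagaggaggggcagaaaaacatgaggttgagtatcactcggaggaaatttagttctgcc
Klra7: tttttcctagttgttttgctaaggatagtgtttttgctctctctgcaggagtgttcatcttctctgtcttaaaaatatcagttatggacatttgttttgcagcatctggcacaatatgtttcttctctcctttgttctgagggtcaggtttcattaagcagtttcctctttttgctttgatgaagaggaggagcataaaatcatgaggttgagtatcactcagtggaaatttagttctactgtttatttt
Klre1: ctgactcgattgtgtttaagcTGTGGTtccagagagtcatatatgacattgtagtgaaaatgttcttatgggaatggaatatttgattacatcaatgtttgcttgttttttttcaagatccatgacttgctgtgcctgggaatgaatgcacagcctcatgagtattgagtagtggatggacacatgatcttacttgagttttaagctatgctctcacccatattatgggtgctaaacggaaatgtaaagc
Ncr1: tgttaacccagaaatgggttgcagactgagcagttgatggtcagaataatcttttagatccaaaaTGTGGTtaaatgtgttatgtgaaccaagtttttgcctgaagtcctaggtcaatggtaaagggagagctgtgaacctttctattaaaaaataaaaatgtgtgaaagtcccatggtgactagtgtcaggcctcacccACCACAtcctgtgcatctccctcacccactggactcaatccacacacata

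The windows of Klra4 and Klra8 were identical at 84.5% of aligned positions, those of Klra4 and Klra7 at 74.0% and those of Klra7 and Klra8 at 74.7%. The other pairs of windows lay between 42.4%, for Klra8 with Klrb1c, and 50.5%, for Klre1 with Ncr1. The RUNX motif was in the windows of Klrc1, Klre1, Klrb1c and Ncr1 and in none of the 3 Klra windows, and 14.05% of all 32851 promoter windows held it. The TATA motif was in those of Klrc1 and Klra8, against 12.4% of all windows. Another motif searched, ETS (AGGAAG, 29.5% of all windows), was found in that of Klrb1c, and the T-box motif (AGGTGT, 11.8%) in none of the 7. These are matches of letters in short windows, not sites of binding.

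The NK cells were found without these genes. The 8 genes and the other NK receptors were left out of the genes that placed cells in clusters, and a cluster was called NK-like from 15 other markers. At least 3 of these had to be raised, with the summed CD3 genes under 25% of the median T and NK cluster. Markers of B cells, macrophages, neutrophils, dendritic, endothelial and cancer cells could not exceed 25% of the level in their own class. The low CD3 and other-class levels below follow in part from this rule and are no check of it. This gave 25 NK-like cells in the primary tumour, 4.10% (2.67–5.99%) of its 610 T and NK cells, and 61 in the lymph node, 1.61% (1.23–2.06%) of 3800. All 15 markers had UMIs in both libraries, and their summed level was 12784 CPM in the tumour and 12849 CPM in the lymph node. Cd3e, which encodes a chain of the T cell receptor complex, was at 0 UMIs in the tumour NK-like cells and at 3 UMIs in those of the lymph node. Of the other CD3 chains, Cd3d had 0 UMIs in the tumour and 21 in 11 of 61 lymph node cells, and Cd3g had 1 UMI in the tumour and 21 in 11 lymph node cells (118 CPM each in the lymph node). The 9 T cell markers summed to 624 and 1164 CPM, with Trbc1 and Trbc2 the highest. Whether some lymph node NK-like cells were T cells was not tested. Macrophage markers summed to 32.9 and 5.62 CPM and cancer cell markers to 98.6 and 163 CPM.

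All 8 genes were found in NK-like cells of both tissues, with 94 UMIs in the tumour and 373 in the lymph node. Together they stood at 1545 CPM (1248–1890) in the tumour and 2097 CPM (1890–2321) in the lymph node, a log2 ratio of tumour over lymph node of -0.44 (-0.78 to -0.11), short of 2-fold. The comparison of single genes was limited by depth, since no gene had more than 17 UMIs in the tumour NK-like cells.

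**Figure D1:**
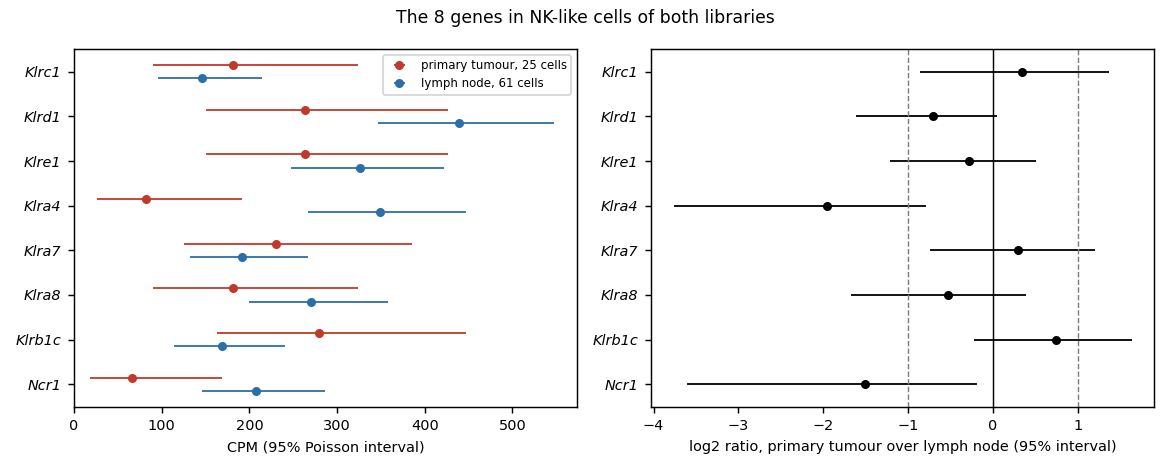
Left, CPM of each of the 8 genes in NK-like cells of the primary tumour (red, 25 cells) and the lymph node (blue, 61 cells), with 95% Poisson intervals. Right, log2 ratio of tumour over lymph node with its 95% counting interval, and dashed lines at 2-fold: Klra4 and Ncr1 lie past the lower line, and the intervals of the other 6 genes include 0.

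Of the CD94 pair, Klrd1 stood at 263 CPM (150–427; 16 UMIs in 10 of 25 cells) in tumour NK-like cells and at 439 CPM (347–547; 78 UMIs in 34 of 61 cells) in those of the lymph node. Klrc1 stood at 181 CPM (90.2–323; 11 UMIs in 8 cells) and 146 CPM (95.5–214; 26 UMIs in 17 cells). Their log2 ratios, -0.70 (-1.61 to 0.05) and 0.34 (-0.86 to 1.37), pointed in opposite directions with intervals that both held 0. Klre1 stood at 263 CPM (16 UMIs) in the tumour and 326 CPM (58 UMIs) in the lymph node, and the intervals overlapped widely.

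Of the 3 Ly49 genes among the 8, Klra4 was past 2-fold between the tissues. It had 5 UMIs in 3 of 25 tumour NK-like cells, 82.2 CPM (26.7–192), against 62 UMIs in 20 of 61 lymph node cells, 349 CPM (267–447), a log2 ratio of -1.96 (-3.76 to -0.79). Klra7 had 14 UMIs in 5 tumour cells (230 CPM, 126–386) and 34 in 18 lymph node cells (191 CPM, 132–267). Klra8 had 11 UMIs in 6 tumour cells (181 CPM, 90.2–323) and 48 in 16 lymph node cells (270 CPM, 199–358). The intervals of Klra7 and Klra8 overlapped between tissues, and those of Klra4 did not. With a looser limit of 10% mitochondrial UMIs per cell, which admitted more tumour cells, Klra4 rose to 180 CPM in the tumour and its log2 ratio shrank to -0.89, inside 2-fold.

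Klrb1c, the NK1.1 gene, stood at 279 CPM (163–447; 17 UMIs in 9 cells) in the tumour and 169 CPM (114–241; 30 UMIs in 23 cells) in the lymph node, a log2 ratio of 0.75 (-0.22 to 1.63). Ncr1 stood at 65.7 CPM (17.9–168; 4 UMIs in 3 cells) and 208 CPM (146–287; 37 UMIs in 19 cells), a log2 ratio of -1.51 (-3.61 to -0.19). The tumour level of Ncr1 thus rests on 4 molecules. Across all 1834 genes with at least 20 UMIs in the compared NK-like cells, 13.2% were more than 2-fold higher in the lymph node and 9.0% in the tumour, 22.2% in all. Of the 8 genes, 2 were past 2-fold towards the lymph node and 0 towards the tumour, with a median log2 ratio of -0.40 against -0.04 over all genes tested. At 8 genes this is close to the background and is not a result about the group. Markers of dividing cells summed to 904 CPM in tumour NK-like cells and 78.7 CPM in those of the lymph node, and their part in these differences was not tested.

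Single NK-like cells showed varied sets of the genes. A tumour cell had a median of 2 of the 8 genes, with 22 of 25 cells showing at least 1 and 10 showing 3 or more. A lymph node cell had a median of 3 and a maximum of 7, with 59 of 61 cells showing at least 1 and 38 showing 3 or more. The tumour cells had fewer UMIs each (median 1950 against 2415). With every cell thinned to 1000 UMIs, which left out 3 tumour cells, the mean number of genes per cell was 1.28 in the tumour and 1.61 in the lymph node. Per 10000 UMIs of a cell, the 8 genes gave a lowest value of 0, a median of 13.4 and a highest of 52.9 in the tumour, and 0, 17.8 and 71.0 in the lymph node, so the ranges of single cells overlapped nearly throughout.

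**Figure D2:**
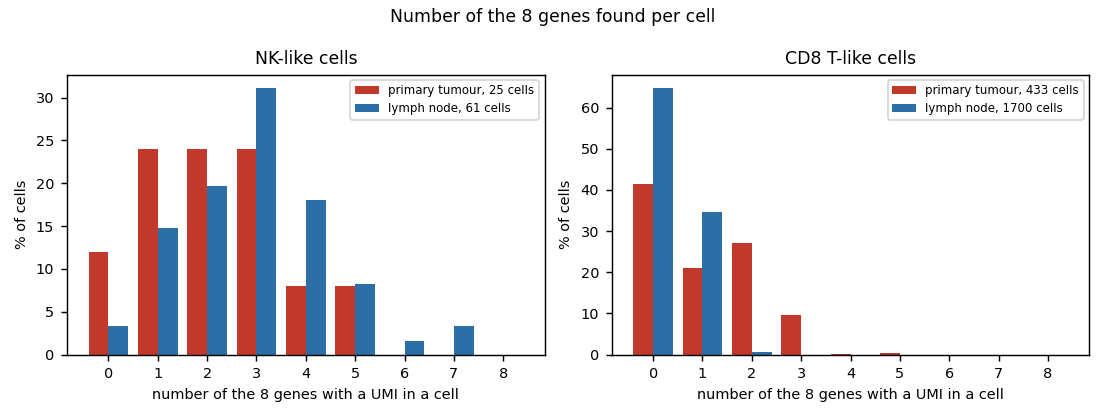
Share of NK-like cells (left) and CD8 T-like cells (right) by the number of the 8 genes with at least 1 UMI in the cell, in primary tumour (red) and lymph node (blue). NK-like cells centre on 2 genes in the tumour and 3 in the lymph node, while lymph node CD8 T-like cells hold at most 2.

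The 3 Ly49 genes were found in many combinations. None of the 3 was seen in 14 of 25 tumour NK-like cells and 24 of 61 lymph node cells. In the lymph node, Klra4 was seen without the other two in 9 of its 20 cells, Klra7 in 8 of 18 and Klra8 in 6 of 16, and all 3 together were seen in 3 cells. In the tumour, all 3 together were seen in 0 of 25 cells. Among the 61 lymph node cells, Klra4 and Klra8 shared 7, where the product of their shares would give 5.25. Klra4 and Klra7 shared 7, where it would give 5.90, and Klra7 and Klra8 shared 6, where it would give 4.72. Klrd1 and Klre1 shared 21, where it would give 17.8. Klrc1 was seen with Klra4 in 2 cells, where the product would give 5.57, and with Klra8 in 2, where it would give 4.46. With the lymph node cells thinned to 1000 UMIs, the share holding both was 5.91% for Klra4 and Klra8 against a product of 4.22%, 4.26% against 3.91% for Klra4 and Klra7, and 2.64% against 2.68% for Klra7 and Klra8, no longer above it. It was 10.1% against 8.52% for Klrd1 and Klre1, 2.22% against 3.15% for Klrc1 and Klra4 and 0.81% against 2.16% for Klrc1 and Klra8. In the tumour, Klrc1 was seen with Klra4 in 1 cell, where the product would give 0.96. These counts are small, since a gene at this depth is missed in many cells that hold its transcript, and they are given as a description.

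The T cells of the tumour carried part of the same receptor set at high level. CD8 T-like cells of the primary tumour stood at 1240 CPM (1166–1318) for the 8 genes together, against 154 CPM (144–164) in the lymph node, a log2 ratio of 3.01 (2.88–3.14). The 2 groups were made of different cells. In the tumour, 433 CD8 T-like cells came mainly from a cluster led by Klrc2, Tnfsf10 and Cxcr6 (282 cells) and a shallow one led by Ccl5, Maf and Rgs1 (144 cells, median 1036 UMIs). In the lymph node, 1700 came mainly from clusters led by Fam241a, Tdrp and Myb (717 cells), Gm8251, Rrad and Bend4 (528), Hspa1a, Hspa1b and Dnajb1 (177) and Bend4, Tdrp and Sidt1 (161). Markers of naive T cells summed to 275 CPM in the tumour and 1862 CPM in the lymph node, and those of effector or exhausted T cells to 1256 and 73.2 CPM. The comparison between tissues is thus between unlike CD8 T cell populations.

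Klrd1 was the gene found in both. It stood at 732 CPM (675–792; 612 UMIs in 212 of 433 cells) in the tumour and at 150 CPM (140–160; 922 UMIs in 584 of 1700 cells) in the lymph node, a log2 ratio of 2.29 (2.14–2.44). With classes taken from a gate on marker UMIs instead, the log2 ratio was 0.98, inside 2-fold. Klrc1, the partner, stood at 348 CPM (309–390; 291 UMIs in 159 cells) in the tumour and at 2.27 CPM (1.24–3.81; 14 UMIs in 11 cells) in the lymph node, a log2 ratio of 7.21 (6.49–8.15). As classed here, lymph node CD8 T-like cells held transcripts of CD94 with next to none of NKG2A, and Klrd1 made 922 of their 948 UMIs of the 8 genes. This depends on the naming of clusters. Of 149 lymph node UMIs of Klrc1, 93 lay in unnamed T or NK cells, which include a cluster with CD8 genes described below. Over 10 alternatives the log2 ratio of Klrc1 ranged from 4.38 to 7.47. Klre1 followed Klrc1, with 127 CPM (106 UMIs in 76 cells) in the tumour and 0.32 CPM (2 UMIs) in the lymph node, a log2 ratio of 8.29 with a wide interval of 6.72 to 11.67. Over the alternatives the log2 ratio of Klre1 ranged from 3.51 to 8.47.

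The other genes were rare or missing in CD8 T-like cells. Klrb1c had 18 UMIs in 12 tumour cells (21.5 CPM) and 1 in the lymph node, and Ncr1 had 10 UMIs in 6 tumour cells (12.0 CPM) and 1. Klra4, Klra7 and Klra8 were at 0 UMIs in all 433 tumour cells, which allows up to 3.59 CPM each, and at 6, 2 and 0 UMIs in the 1700 lymph node cells. These 3 Ly49 genes were thus not detectable in the tumour CD8 T-like cells at a depth that gave 612 UMIs of Klrd1. In this comparison 32.3% of 9170 genes tested were more than 2-fold higher in the tumour and 6.82% in the lymph node, 39.1% in all, with a median log2 ratio of 0.57 over all genes. Of the 8 genes 3 had enough UMIs to be tested, Klrc1, Klrd1 and Klre1, and Klrc1 and Klre1 had them only through the tumour cells, so their number is not counted as support. Haemoglobin and other red cell markers summed to 3535 CPM in tumour CD8 T-like cells and 230 CPM in those of the lymph node, and cancer cell markers to 306 and 81.6 CPM. Their part in the result was not tested. At 1000 UMIs, 58.5% of the CD8 T-like cells of the tumour showed any of the 8 genes (58.4% without thinning, median 1452 UMIs, 104 shallower cells left out), against 0.797% of its cancer cells (8.46% without thinning, median 14070 UMIs, 80 left out).

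Within the tumour CD8 T-like cells the genes went with 1 cluster. The cells led by Klrc2, Tnfsf10 and Cxcr6 held 911 CPM (839–987) of Klrd1, 418 CPM (370–471) of Klrc1 and 161 CPM (131–195) of Klre1. Those led by Ccl5, Maf and Rgs1 held 87.6 CPM (49.0–144) of Klrd1, 105 CPM (62.3–166) of Klrc1 and 5.84 CPM (1 UMI) of Klre1. The intervals of each gene were far apart, and 231 of 282 cells of the first cluster showed at least 1 of the 8 genes against 20 of 144 of the second. Klrc1 and Klrd1 often shared a cell: 127 tumour CD8 T-like cells held both, where the product of their shares would give 77.8. Both genes share the depth of a cell, and the product pools these clusters of unlike levels, which by itself raises the number that hold both. With all cells thinned to 1000 UMIs, 15.6% held both, against a product of 11.7%, with the clusters still pooled.

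**Figure D3:**
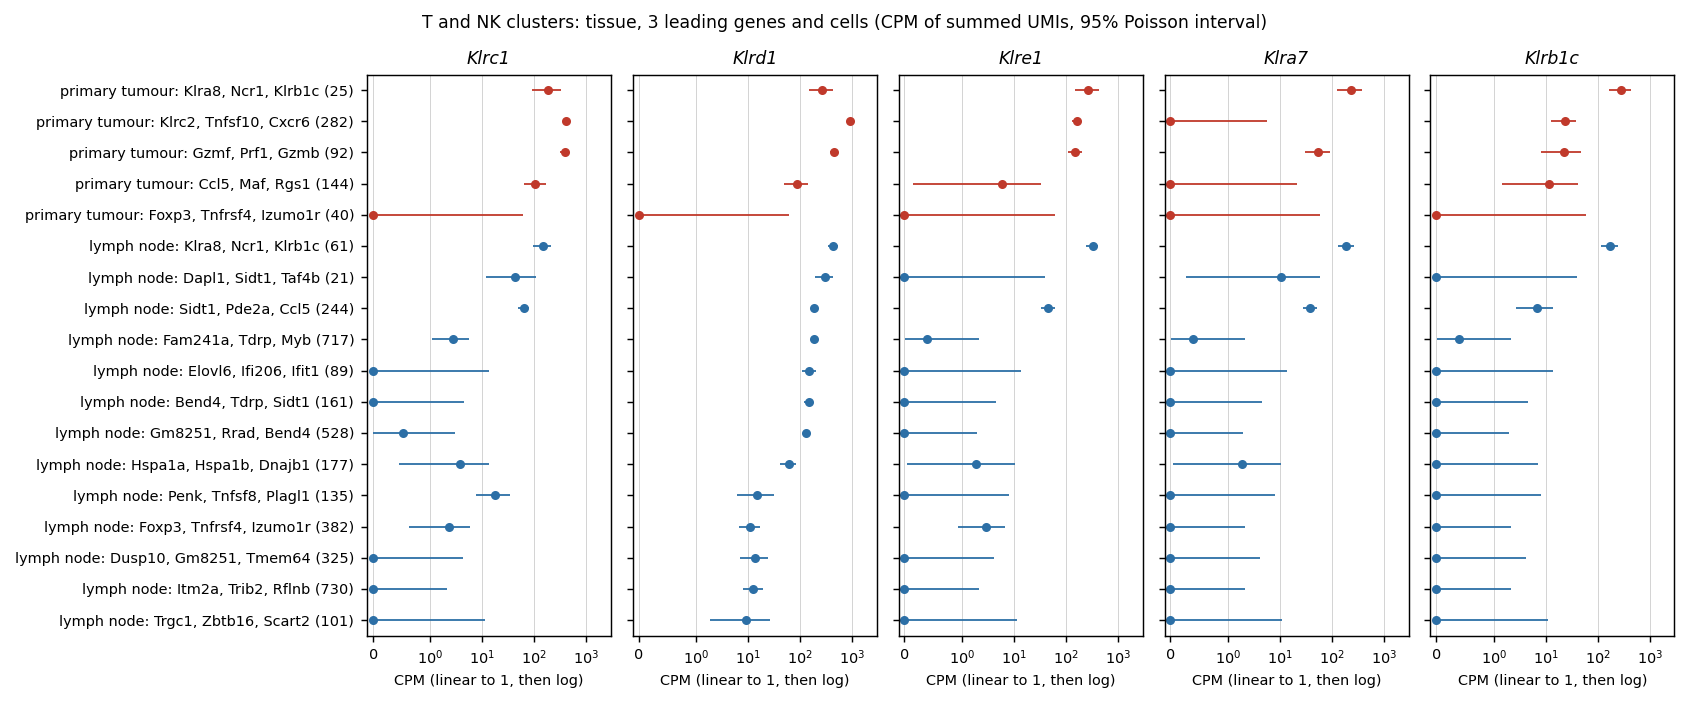
CPM of Klrc1, Klrd1, Klre1, Klra7 and Klrb1c in each T and NK cell cluster with at least 20 cells of a tissue that was not led by B cell genes (red, primary tumour; blue, lymph node), labelled by its 3 leading genes and number of cells, with 95% Poisson intervals on an axis linear to 1 and log above. Klrd1 lies between 60.2 and 298 CPM in every lymph node cluster from that led by Dapl1 to that led by Hspa1a, while Klrc1 there lies at 63.0 CPM or below.

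Clusters that the naming rule kept out of the CD8 class carried the genes too. A tumour cluster of 92 cells led by Gzmf, Prf1 and Gzmb, with Pdcd1 and Havcr2, stood at 458 CPM (381–545) for Klrd1, 384 CPM (314–465) for Klrc1 and 150 CPM (108–204) for Klre1, close to the levels of the large tumour cluster except for Klrd1. With 8 lymph node cells that joined it, the cluster held 742 CPM of Cd8a and 627 CPM of Cd3e, and it was unnamed because its 10 leading genes held an NK marker, Prf1, and none of the T cell markers. Klra7 reached 54.9 CPM there, but its 15 UMIs lay in 2 cells, 8 of them in 1. A lymph node cluster of 244 cells led by Sidt1, Pde2a and Ccl5 stood at 186 CPM (161–214) for Klrd1, 63.0 CPM (48.6–80.2) for Klrc1, 45.5 CPM (33.5–60.5) for Klre1 and 38.7 CPM (27.7–52.8) for Klra7. Here Klra7 was spread over 24 cells with at most 6 UMIs in 1, and Klra8 had 5 UMIs and Ncr1 0. It stood at 349 CPM of the 8 genes together, with Cd3e at 240 CPM, beside a small cluster of 21 cells led by Dapl1, Sidt1 and Taf4b (351 CPM). These were the highest T cell clusters among those with at least 20 lymph node cells. The 8 lymph node cells of the Gzmf cluster, too few to be ranked, held 58 UMIs of the 8 genes. With all clusters that held CD8 genes placed in the class, an alternative added after the data were seen, the log2 ratio of the 8 genes between tissues was 2.66.

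Other lymph node T cells had little but Klrd1. In the clusters of CD8 T-like cells led by Fam241a (717 cells), by Gm8251 (528) and by Bend4 (161), Klrd1 stood at 185, 132 and 146 CPM, and in the one led by heat shock genes at 60.2 CPM. CD4 T-like cells stood at 13.3 CPM of Klrd1 (41 UMIs in 33 of 1190 cells), regulatory T-like cells at 10.95 CPM and Trdc-high T cells at 9.11 CPM, with intervals that overlapped. In the tumour, 40 regulatory T-like cells held 0 UMIs of all 8 genes, which at their depth allows up to 49.2 CPM.

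Set against CD8 T-like cells of the same library, NK-like cells of the lymph node had higher values of all 8 genes. The log2 ratio was 1.56 (1.20–1.89) for Klrd1 and 5.99 (5.02–7.06) for Klrc1. Klra8 had 0 UMIs in the CD8 T-like cells and was higher by 554-fold against 3 counts over that group. Among 8743 genes tested, 19.1% were more than 2-fold higher in NK-like cells and 11.6% in CD8 T-like cells, 30.7% in all. All but Klrd1 had 0 to 14 UMIs in the CD8 T-like cells and reached 20 UMIs only through the NK-like cells, so the number of genes is not read against that background. In the tumour, 4 of the 8 genes had at least 20 UMIs in both classes together. Klrd1 was past 2-fold lower in NK-like than in CD8 T-like cells, at a log2 ratio of -1.43 (-2.29 to -0.77). Klrc1 stood at -0.88 (-1.96 to -0.08), inside 2-fold and with overlapping levels. Klre1, 1.09 (0.19–1.82), and Klrb1c, 3.70 (2.65–4.74), were past 2-fold higher in NK-like cells, the levels of Klre1 with overlapping intervals. The other 4 genes had under 20 UMIs and are given as values only. Among these, Ncr1 stood at 2.56 (0.33–4.25), with overlapping levels. Against 3 counts over the CD8 T-like cells, the Ly49 genes were higher by 22.9-fold for Klra4, 64.1-fold for Klra7 and 50.4-fold for Klra8. These folds, and that of Klra8 in the lymph node, leave out the counting error of the NK-like cells, which in the tumour rested on 5, 14 and 11 UMIs. In that comparison 9.72% of 5784 genes tested were more than 2-fold higher in NK-like cells and 21.4% in CD8 T-like cells, 31.2% in all.

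**Figure D4:**
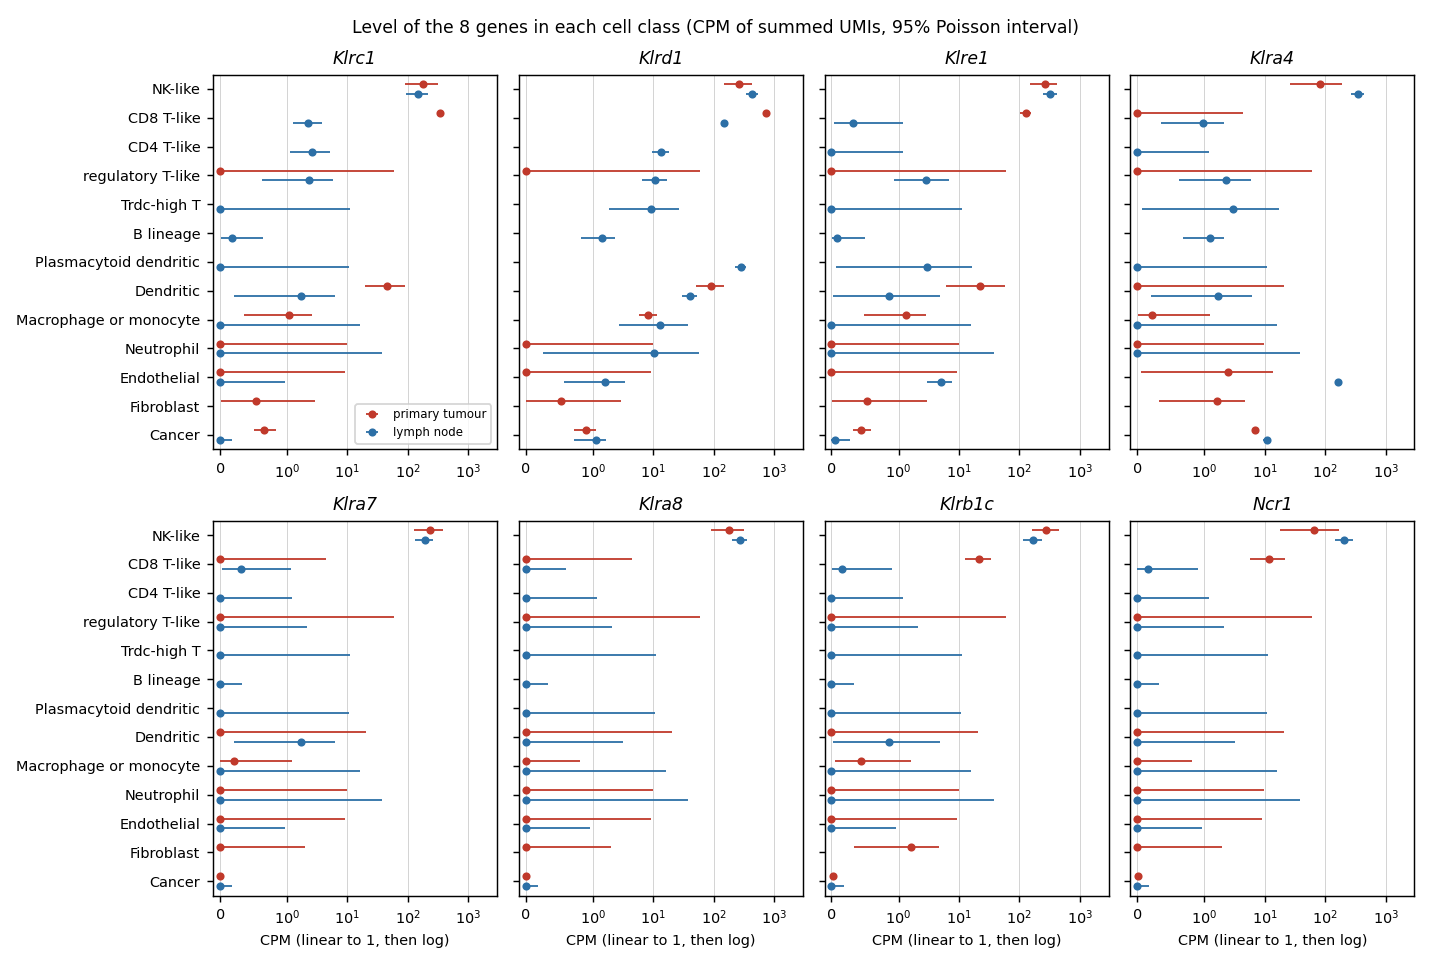
CPM of each of the 8 genes in each cell class with at least 20 cells, in primary tumour (red) and lymph node (blue), with 95% Poisson intervals on an axis linear to 1 and log above. Klra7, Klra8 and Klrb1c peak in NK-like cells of both tissues. Klre1 and Ncr1 are also highest there, but in the tumour their intervals overlap those of CD8 T-like cells. Klrd1 is also high in CD8 T-like and plasmacytoid dendritic cells and Klra4 in lymph node endothelial cells.

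The NK-like cells held a minor share of all UMIs of the 8 genes: 12.4% (11.2–13.6%) of 3018 in the lymph node and 3.89% (3.15–4.74%) of 2418 in the tumour. CD8 T-like cells held 31.4% and 42.9%, unnamed T or NK cells 17.3% and 13.5%, cancer cells 8.15% and 35.9%, and endothelial cells of the lymph node 21.7%. The genes differed widely in this. NK-like cells held 90.6% (79.3–96.9%) of the lymph node UMIs of Klra8, 90.2% (76.9–97.3%) of those of Ncr1 and 69.8% (53.9–82.8%) of those of Klrb1c. They held 40.0% of those of Klra7 and of Klre1, 17.4% of those of Klrc1, 6.49% of those of Klra4 and 5.04% of those of Klrd1. Unnamed T or NK cells of the lymph node held 55.3% of the UMIs of Klra7, 62.4% of those of Klrc1 and 39.3% of those of Klre1. In the tumour NK-like cells held 61.1% (35.7–82.7%) of the 18 UMIs of Klra8 and 4 of the 16 UMIs of Ncr1, of which CD8 T-like cells held 10.

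Klrd1 was also high in plasmacytoid dendritic cells of the lymph node, the interferon-producing relatives of dendritic cells, at 280 CPM (227–342; 96 UMIs in 43 of 67 cells) below NK-like cells and above CD8 T-like cells, with no overlap of the intervals of neighbours in that order. At 1000 UMIs, 24.6% of them showed it (64.2% without thinning, median 4694 UMIs). They held 0 UMIs of Klrc1, Klra4, Klra7, Klra8, Klrb1c and Ncr1, and 1 of Klre1. Dendritic cells stood at 40.3 CPM (47 UMIs in 29 of 190 cells) in the lymph node and 90.3 CPM (16 UMIs in 9 of 42 cells) in the tumour. Where the genes should be absent, the values were lower. At 1000 UMIs, 0.258% of 4652 lymph node B cells showed any of the 8 genes (28 of 4721 without thinning, median 1813 UMIs), and Klrd1 stood at 1.44 CPM in B cells and at 0.91 CPM in tumour cancer cells.

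Most UMIs counted as Klra4 lay outside lymphocytes. The files hold counts and not reads, so which part of the gene these UMIs came from, and whether all came from Klra4 itself, was not tested. Of 955 UMIs in kept lymph node cells, 629, or 65.9% (62.8–68.9%), lay in endothelial cells and 222, or 23.2%, in cancer cells, and of 678 in the tumour 666, or 98.2%, lay in cancer cells. In the lymph node the endothelial UMIs came from a cluster of 191 cells led by Glycam1, Trim54 and Gm6526, with Fut7, in which 113 cells, 59.2% (51.8–66.2%), had a UMI of Klra4, up to 26 in 1 cell. Glycam1 and Fut7 are known markers of high endothelial venules. The cluster stood at 166 CPM (153–179), below the 349 CPM of NK-like cells and above every other class of the lymph node. The same cells held 7 UMIs of Nkg7, a gene of cytotoxic lymphocytes, and 0 of Klra7 and Klra8. At 1000 UMIs, 11.8% of lymph node endothelial cells showed Klra4 (57.9% without thinning, median 15617 UMIs, 15 cells left out), against 0.164% of B cells.

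Endothelial cells of the tumour gave another value. Their cluster, led by Grrp1, Aplnr and Sox17, held 1 UMI of Klra4 in 51 cells, 2.48 CPM (0.06–13.8). These were a different endothelial cluster from the one of the lymph node, and the values are set side by side without a comparison. Cancer cells lay lower than the Glycam1 cluster: 439 of 6121 in the tumour and 126 of 608 in the lymph node had a UMI. Tumour cancer clusters ranged from 1.99 CPM (1.09–3.33) to 16.5 CPM (14.8–18.2), the highest being the cluster led by Tff1, Cpn1 and Alb. The cancer clusters of the lymph node ranged from 10.3 to 18.9 CPM. The value of 18.9 CPM (12.2–27.9), of the cluster led by Tff1, rests on 25 UMIs in 8 of 57 cells, 16 of them in 1 cell, so these clusters are not ranked.

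**Figure D5:**
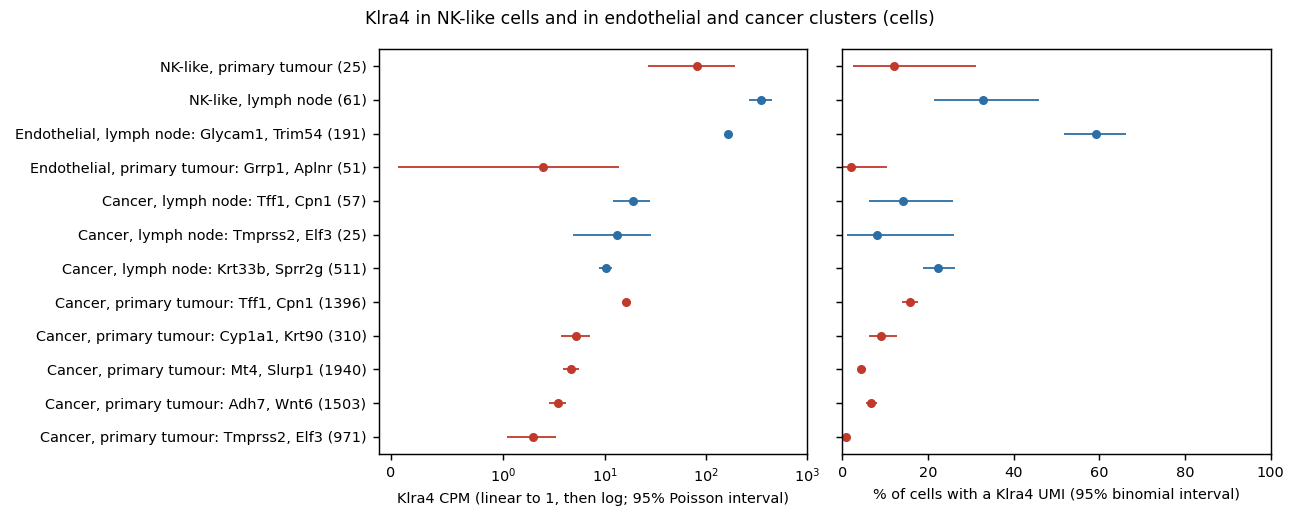
Klra4 in NK-like cells and in each endothelial and cancer cluster with at least 20 cells of a tissue (red, primary tumour; blue, lymph node; number of cells in brackets): CPM with 95% Poisson intervals on the left, on an axis linear to 1 and log above, and the share of cells with a UMI with 95% binomial intervals on the right. The lymph node cluster led by Glycam1 reaches 166 CPM and 59.2% of cells, more cells than the 32.8% of lymph node NK-like cells but at a median depth of 16269 UMIs against 2415.

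The upper limit of 6000 genes per cell weighed on Klra4 more than on the rest. In the lymph node, the 971 cells over that limit held 3317 of the 4318 deposited UMIs of Klra4, 76.8%, at 49.6 CPM, in 494 cells. Of these, 234 had a UMI of the endothelial genes Pecam1 or Cdh5 and 431 of the keratins Krt8 or Krt18, so some had both, and up to 83 UMIs lay in 1 cell. Without the limit, endothelial cells of the lymph node numbered 391 and stood at 170 CPM of Klra4, close to the 165 CPM of the 195 endothelial cells kept. The average over single cells was 123 CPM.

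Klre1 had 19 UMIs in 9 of the lymph node endothelial cells (4.98 CPM), none of which had Klrd1. Klrc1, Klra7, Klra8, Klrb1c and Ncr1 were at 0 UMIs in these 195 cells.

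Of 28 other NK receptor genes, 27 were in the gene lists, and 5 had enough UMIs in NK-like cells to compare the tissues. Klrb1b was past 2-fold towards the tumour and Klra9, another Ly49 gene, towards the lymph node, where 9.0% and 13.2% of all genes were. Their levels had overlapping intervals. Klrb1b stood at 214 CPM (114–365) in the tumour and 107 CPM (64.3–167) in the lymph node, and Klra9 at 82.2 CPM (26.7–192) and 186 CPM (128–261). Klrk1, which encodes the activating receptor NKG2D, stood at 197 and 360 CPM, Klrc2, the activating partner of CD94, at 115 and 146 CPM, and Klri2, a partner of the Klre1 product, at 197 and 141 CPM, all with intervals that held 0 for the log2 ratio. In CD8 T-like cells 10 could be compared. All 10 were past 2-fold towards the tumour, but several had so few UMIs in the lymph node that they could be compared only through the tumour cells, and their number is not read as a result. Among them Klrc2 stood at 299 and 3.41 CPM and Klrk1 at 196 and 3.25 CPM.

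Of 12 adaptor and signalling genes, 5 could be compared in NK-like cells, among them Tyrobp and Fcer1g, which had also served as NK markers. Tyrobp, through which Klra4 and Klra8 signal, stood at 953 CPM in the tumour and 2064 CPM in the lymph node, a log2 ratio of -1.10 (-1.54 to -0.71), and was the one past 2-fold, where 13.2% of all genes were past it towards the lymph node. Fcer1g stood at 1446 and 1794 CPM, Hcst, the adaptor of NKG2D, at 394 and 405 CPM, and Inpp5d, a phosphatase that inhibitory receptors recruit, at 115 and 107 CPM. In CD8 T-like cells 5 of 9 were past 2-fold towards the tumour, where 32.3% of all genes were, among them Fcer1g (138 against 4.38 CPM) and Tyrobp (63.4 against 1.14 CPM). Tyrobp, with 53 and 7 UMIs, could be compared only through the tumour cells, so this count is not read against that share.

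Of 7 ligand genes, 4 could be compared in NK-like cells and none was past 2-fold. H2-T23, which encodes the Qa-1 bound by CD94 and NKG2A, stood at 82.2 and 157 CPM, H2-D1 at 1479 and 2592 CPM, H2-K1 at 3056 and 3453 CPM and B2m at 2169 and 2103 CPM. In CD8 T-like cells H2-T23 was past 2-fold towards the tumour, 209 against 92.8 CPM, with Clec2d, 2 of 6 genes, near the 32.3% of all genes. Of 9 transcription factors of NK cells, 6 could be compared in NK-like cells, and Eomes (674 against 281 CPM), itself an NK marker, and Runx3 (1167 against 304 CPM) were past 2-fold towards the tumour, where 9.0% of all genes were, while Id2 (953 and 962 CPM) and Ets1 (756 and 551 CPM) were not. In CD8 T-like cells 7 of 8 were past 2-fold towards the tumour, against 32.3% of all genes, a count not read as a result because Tbx21 and Prdm1, with 16 and 19 UMIs in the lymph node, could be compared only through the tumour cells. Among the 7, Id2 stood at 1404 against 84.0 CPM, Eomes at 305 against 25.2 CPM and Runx3 at 386 against 113 CPM.

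Across 21 combinations of class and library with at least 20 cells, the genes whose level ran most like that of the 8 genes together were Xcl1, a chemokine gene of NK and CD8 T cells and one of the NK markers (Pearson r of 0.85 on log2(CPM + 1)), Klri2 (0.81), Klrk1 (0.79), Adgrg5 (0.75), Klrc2 (0.74), Arl10 and Ccl5 (0.73 each), Wdr95 and Gatad2a (0.72 each) and Ubtf (0.72), among 12337 genes. The points share 2 libraries and differ in depth, and no test was made. Of these, Xcl1 was at 444 and 990 CPM in NK-like cells of tumour and lymph node and at 203 and 14.6 CPM in CD8 T-like cells.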

How the data were processed

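The deposited files held raw UMI counts per gene and cell, which the authors made with Cell Ranger (5.0.0 per the file headers, 2.1.1 per the submitters' processing notes) on GRCm38, as whole numbers without normalization. They held 12427 primary tumour cells (173317475 UMIs) and 11617 lymph node cells (122207852 UMIs), and 47 cell barcodes occurred in both. Cells with more than 200 and at most 6000 genes and at most 5% mitochondrial UMIs were used (9147 and 10305). Doublets were scored with Scrublet in scanpy 1.11.5. Its automatic threshold marked 391 tumour cells and 0 lymph node cells, so there the cells with scores past the 94th percentile (616) were taken out.

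Cells of both libraries were clustered together (30 components, 15 neighbours, resolution 1.0), and T and NK cells again (20 components). The 8 genes and the other NK receptors, adaptors, ligands and transcription factors listed were left out of the variable genes, and cell cycle scores were regressed out. T and NK clusters with at least 8 raised NK markers were divided at resolution 2.0, a step set after the data were seen. Clusters were named from listed markers, so class names and shares are rebuilt and not the authors'. A T or NK cluster stayed unnamed with under 10 cells, with its 10 leading genes richer in markers of a rival class, or if shallow with none of its own. Such a cluster also stayed unnamed with markers of another class above 25% of the level in that class. The name NK-like also required summed CD3 genes under 25% of the median cluster. This left 105 tumour cells (17.2% of T and NK cells) and 366 lymph node cells (9.63%) unnamed. Tcrg-C1, Tcrg-C2, Tcrg-C4, Tcrg-V6, Cd163l1 and Cd244 had no match in the gene lists.

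Log2 ratios added 0.5 count to each sum, with the exact interval of the split of both counts. A gene was tested with at least 20 UMIs in both groups together and called past 2-fold. A fold against 0 UMIs used 3 counts over the group, and these intervals and limits cover counting error only. Shares at 1000 UMIs are the value expected over all random draws. The interval and thinning scripts were tested on simulated data. The named genes were the 8, up to 4 of each list with the most UMIs in NK-like cells, and the 10 with the highest Pearson r. Klrb1b, Clec2d, Tbx21, Prdm1 and the genes named for removed cells were named after their values were seen. The members and lists were chosen with earlier results of these data known. Alternatives changed the doublet step, both cell limits, the clustering, the naming and the averaging, and left out the richest cell. Proteins were not analysed here.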

Additional observations from a re-analysis of the deposited data

How the results depend on the processing

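With 1 library per tissue the values rest on 25 and 61 NK-like cells, and 4 to 17 UMIs per gene in the tumour. The log2 ratio of the summed 8 genes kept its direction in NK-like and in CD8 T-like cells under every alternative run, but in NK-like cells the interval held 0 with a mitochondrial limit of 10% and with the receptor genes allowed as variable genes. The share of the UMIs of the 8 genes held by NK-like cells of the tumour, 3.89%, was 4.89% with a mitochondrial limit of 10%, 5.58% with the receptor genes allowed as variable genes and 1.94% with classes from a gate on marker UMIs. In the lymph node, 12.4% became 5.74% without the upper limit on genes, 10.2% with each library clustered on its own and 3.41% under the gate. The log2 ratio of the 8 genes in NK-like cells, tumour over lymph node, was -2.80 under the gate, whose 95 tumour cells included 51 macrophages or monocytes and 10 NK-like cells, against -0.44. In CD8 T-like cells, 3.01 became 3.33 with the 10% limit, 3.57 with each library clustered on its own, 2.77 with the receptor genes allowed, 1.68 under the gate and 2.66 with all CD8 T clusters, an alternative chosen after seeing the data. Where no cause is named it was not tested. The log2 ratio of Klra4 in NK-like cells ranged from -3.50 to -0.89 over 9 alternatives and that of Ncr1 from -1.90 to -1.13. Single genes that were not past 2-fold crossed 0: in NK-like cells Klrc1 ranged from -2.53 to 0.52, Klra7 from -1.15 to 1.08 and Klrb1c from -2.42 to 1.04, and in CD8 T-like cells Klra4 ranged from -1.49 to 1.37 and Klra7 from -3.27 to 1.20. Under the gate, Klrd1 (-2.88), Klre1 (-4.49) and Klra8 (-1.68) went past 2-fold in NK-like cells, and Klrd1 in CD8 T-like cells fell from 2.29 to 0.98, inside 2-fold. Of the other values, 408 stayed the same and 80 moved. Levels and ratios were judged by their counting interval, and numbers of cells, which have none, by a fixed fold. No paired analysis was possible because each tissue had 1 library and no test was run.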
